A study of Mus musculus with 33 samples.

Results

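A set of 10 genes encoding inflammasome sensors, their adaptor, their caspases, the pore protein and the cytokines they release were followed across 33 RNA sequencing libraries of sorted mouse microglia. They were chosen by name: the sensors Nlrp1a, Nlrp1b, Nlrp3 and Nlrc4, the adaptor Pycard, the caspases Casp1 and Casp4, the gasdermin Gsdmd, and the cytokines Il1b and Il18. All 10 were found among the 54146 gene identifiers of the files, and each had a count in at least 1 library. An inflammasome forms when a sensor meets a danger or microbial signal and gathers the adaptor ASC, the product of Pycard, and caspase-1. Caspase-1 then cuts pro-interleukin-1 beta and pro-interleukin-18 into active cytokines and cuts gasdermin D, whose fragment forms pores in the plasma membrane, while caspase-4 (also called caspase-11 in mice) responds to bacterial lipopolysaccharide inside the cell. In microglia, Il1b transcription is low at rest and is induced by inflammatory signals, so RNA levels describe the supply of these proteins and not their cleavage.

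The libraries fell into 10 groups, all from mice labelled C57BL/6. Germline IRF8KO mice, which lack the myeloid transcription factor IRF8, and WT mice gave 4 libraries per genotype at the age of 3 months and 3 per genotype at 9 months. The older age also included 5xFAD mice, a transgenic model of amyloid deposition, with Irf8 intact (genotype label 5xFAD/WT) and as 5xFAD/IRF8KO (3 each). Batf3KO mice (Batf3-/-), which lack a leucine zipper partner of IRF8, had their own WT group at 3 months (3 each). In the conditional experiment at 3 months, 3 libraries carried IRF8flox alone and 4 carried IRF8flox with Cx3cr1CreERT2, a tamoxifen-inducible Cre expressed from the Cx3cr1 locus in microglia and other macrophages. Both of these groups received tamoxifen on 5 consecutive days from postnatal day 12, and they are called flox and Cre here. YFP-positive cells were sorted in that experiment, and how the flox cells were gated is not given in the sources used here. Nothing in the labels says which libraries share an animal, so p-values measure the spread between these libraries.

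The Irf8 count covers the whole gene, and which exons each allele removes is not given in the sources used here. Total counts in genes were 605376 to 18357762 per library. Irf8 itself was below every WT library of the same age in all germline IRF8KO libraries, but it was not absent. At 3 months its mean was 113 CPM (counts per 1e6 counts in genes, with TMM scaling of library sizes) in IRF8KO. WT of that age had 245 CPM (log2 fold change -1.12). At 9 months the means were 77.8 CPM in IRF8KO, 91.8 in 5xFAD/IRF8KO, 638 in WT and 635 in 5xFAD. The words without Irf8 therefore name the genotype here, not a count of 0. In the conditional experiment Irf8 was 1096, 1244 and 972 CPM in flox and 444, 367 and 521 CPM in Cre replicates 2, 3 and 4 (log2 fold change -1.32). It was 1134 CPM in the library labelled Cre replicate 1, within the flox range and not reduced as its label would have it. Whether the labels of the other flox and Cre libraries hold was not tested. Results of that experiment are given with and without this library. Homeostatic microglial genes, a list of 10 that includes P2ry12 and Tmem119, took 2.66% to 5.76% of counts in the WT, 5xFAD, Batf3 and conditional groups outside the 3-month IRF8KO experiment. At 3 months they took 0.9% to 2.14% in the WT libraries of that experiment, 0.503% to 0.82% in its IRF8KO libraries, and 0.311% to 0.751% in the 6 libraries without Irf8 at 9 months. A list of 13 neutrophil genes moved the other way, from 5.97e-05% to 0.00033% in WT at 9 months, with 9 of the 13 at 0 in all 3 libraries, to 6.46% to 9.05% in IRF8KO of that age, with none at 0. The same 9-month IRF8KO libraries had higher shares than WT of that age for lists of red blood cell genes (2.38% to 15.8% against at most 0.00529%), oligodendrocyte genes (0.702% to 1.09% against at most 0.0167%), astrocyte genes (0.208% to 0.261% against at most 0.00209%) and monocyte genes (0.112% to 0.251% against at most 0.00125%). Within the monocyte list, Ms4a4c was lower in IRF8KO (0 to 0.306 CPM against 5.22 to 6.31), and Ccr2 was 0 to 0.128 against 0 to 3.4. Ly6c2, Plac8, Fn1, Vcan and Hp reached higher values in IRF8KO than in WT. Reads in genes were 48.63% to 53.44% of all reads in the 9-month IRF8KO libraries and 74.67% to 77.35% in WT of that age, and reads with several map positions were 15.1% to 35.4% and 4.858% to 5.197%. In 5xFAD/IRF8KO the latter were 12.17% to 26.84%, against 5.923% to 6.851% in 5xFAD. Such shares were not particular to IRF8KO. In WT at 3 months, red blood cell genes took 3.05% to 10.3%, oligodendrocyte genes 0.527% to 6.25% and astrocyte genes 0.108% to 0.751%. In IRF8KO of that age they took 0.909% to 9.04%, 0.312% to 3.65% and 0.0527% to 0.419%. Reads with several map positions were 20.5% to 29.74% in that WT group and 13.16% to 29.77% in IRF8KO. Reads in genes were 47.31% to 63.91% and 59.05% to 73.78%, in the same order. In bulk RNA, a change in the share of a cell type and a change in RNA per cell cannot be told apart.

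The upstream sequences of 4 members are shown because differences in these genes recur in several comparisons. RefSeq start sites (GRCm38.p6) matched 9 of the 10 members by symbol, in 12 windows of 250 bases before the start. Each window was searched on both strands for GAGGAAGT, a PU.1 box bound by the myeloid ETS factor PU.1, and for TATAAA, the TATA box. It was also searched for composite elements at which IRF8 binds with a partner. These were GGAA then GAAA with 2 bases between (the ETS-IRF element), GAAA then GGAA with 2 bases between (the IRF-ETS element) and GAAA then GAAA with 2 bases between (the interferon-stimulated response element). The last motif was TGANTCA, the AP-1 site. Capitals mark the match, sequences run 5' to 3' on the gene's strand, and the genes lie on the minus strand.
Nlrp1a (chr11:71144705-71144954): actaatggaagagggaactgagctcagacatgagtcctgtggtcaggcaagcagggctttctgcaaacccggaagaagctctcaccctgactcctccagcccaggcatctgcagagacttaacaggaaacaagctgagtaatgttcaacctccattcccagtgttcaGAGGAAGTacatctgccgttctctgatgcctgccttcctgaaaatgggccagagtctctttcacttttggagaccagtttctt
Nlrp1b (chr11:71230734-71230983): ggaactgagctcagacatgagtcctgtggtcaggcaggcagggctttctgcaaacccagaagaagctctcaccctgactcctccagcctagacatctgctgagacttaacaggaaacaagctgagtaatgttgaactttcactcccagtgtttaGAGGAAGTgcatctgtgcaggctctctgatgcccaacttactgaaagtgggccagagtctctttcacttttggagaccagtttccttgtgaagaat
Pycard (chr7:127993868-127994117): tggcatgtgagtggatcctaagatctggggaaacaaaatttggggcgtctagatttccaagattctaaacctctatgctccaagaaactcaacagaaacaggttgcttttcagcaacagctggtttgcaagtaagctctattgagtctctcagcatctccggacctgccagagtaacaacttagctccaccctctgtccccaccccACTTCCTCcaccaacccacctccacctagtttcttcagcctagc
Il1b (chr2:129371140-129371389): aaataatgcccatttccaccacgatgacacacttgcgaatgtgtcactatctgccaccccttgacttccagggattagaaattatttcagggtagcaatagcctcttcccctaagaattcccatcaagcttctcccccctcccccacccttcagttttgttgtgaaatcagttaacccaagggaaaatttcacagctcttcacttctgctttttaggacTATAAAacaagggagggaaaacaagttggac

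The PU.1 box was present in Nlrp1a, Nlrp1b and Pycard, which is 3 of the 9 members matched and 3 of their 12 windows, against 2.44% of 32851 promoter windows. Another window of Nlrp1b, not shown, had no motif. The box ended 75 bases before the start in Nlrp1a and 88 in Nlrp1b, and in Pycard it lay on the opposite strand, 36 bases before the start. The windows shown for Nlrp1a and Nlrp1b, neighbouring paralogs on chromosome 11, were identical at 219 of 237 aligned bases (92.4%), so their boxes are not independent matches. TATAAA was found in Il1b, 25 bases before the start, and on the opposite strand in Il18, 169 bases before it, against 12.4% of windows. The letters of the 4 other motifs were in no window of a member, against 2.3% of all windows for the ETS-IRF and for the IRF-ETS element, 2.98% for the interferon-stimulated response element and 6.75% for the AP-1 site. These matches describe letters in a window, not binding.

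Il1b showed the widest range of the cytokines. Its order over the 10 groups, on CPM scaled over all 33 libraries, ran from 158 ± 70.2 in 5xFAD/IRF8KO to 1.57 ± 0.481 in WT at 9 months (SD, n = 3 each). Between them lay IRF8KO at 9 months (60.3 ± 17.9, n = 3), IRF8KO at 3 months (39.1 ± 9.83, n = 4), flox (36.5 ± 26.3, n = 3), WT at 3 months (20.5 ± 25, n = 4) and 5xFAD (15 ± 12.3, n = 3). Cre (10.7 ± 15.8, n = 4), WT of the Batf3KO experiment (4.3 ± 0.436, n = 3) and Batf3KO (3.69 ± 0.447, n = 3) followed. On this scale the Cre libraries were 34.5 CPM in the one labelled replicate 1 and 2.27, 3.53 and 2.54 CPM in replicates 2 to 4, so without the former the Cre group lay below both Batf3KO experiment groups and above WT at 9 months. With all libraries, only the first group and its neighbour, and the last and its neighbour, were apart by more than their SDs. The plot of Il1b by library shows the spread within flox and WT at 3 months.

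**Figure D1:**
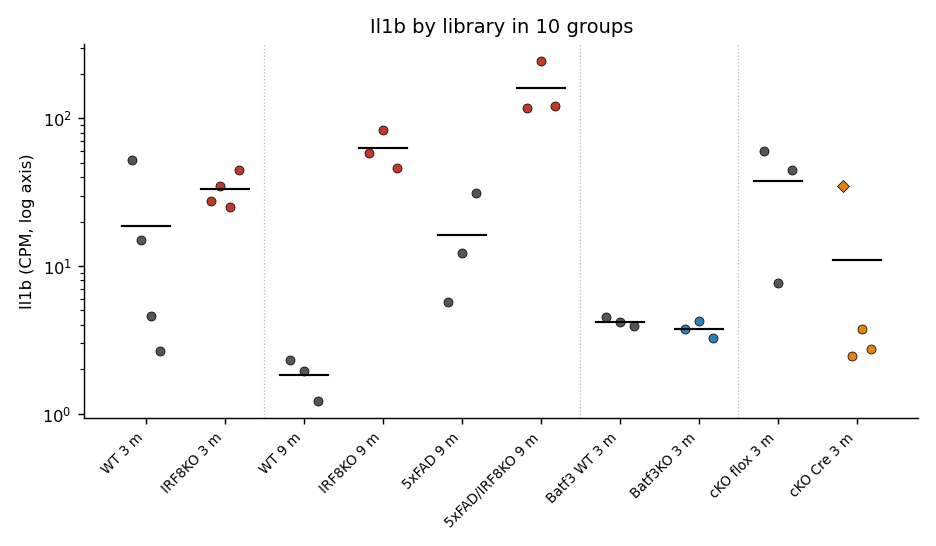
Il1b in CPM (log axis, TMM scaling within each experiment) by library in the 10 groups. Each point is a library, the line is the group mean, dotted lines separate the 4 experiments and the diamond is the library labelled Cre replicate 1. The 6 libraries without Irf8 at 9 months sit between 45.9 and 245 CPM, above all WT and 5xFAD libraries of that age.

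At 9 months, loss of Irf8 went with a higher Il1b level and lower levels of Nlrp1a, Nlrp1b, Pycard, Casp4 and Gsdmd. Of the 10 members, 9 could be tested, 1 was called higher and 5 lower in IRF8KO than in WT (edgeR quasi-likelihood test, Benjamini-Hochberg adjusted p under 0.05). Over all 14604 genes tested, 28.3% were called in either direction, 19.6% higher and 8.68% lower, so being called is common in this comparison. The median log2 fold change of the members tested was -1.89, also with Nlrp1a at its bound, against 0.25 over all genes.

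The sensors of the NLRP1 family, which are activated when proteases or pathogen effectors disturb their N terminus, were almost undetected in IRF8KO at 9 months. Nlrp1a had 0 counts in all 3 IRF8KO libraries and was 24.6, 21.4 and 23.1 CPM in WT, at least 174-fold lower (from 3 counts over the group; adjusted p = 0.000204). Nlrp1b had 1 count in the 3 IRF8KO libraries together and was 20.6, 22.3 and 24.3 CPM in WT. Its ratio was 467-fold lower (exact 95% counting interval 82.9 to 18551; adjusted p = 0.0129). Both genes separated the groups completely. Floors and intervals cover counting error only.

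The adaptor Pycard was 12.1, 44.3 and 18.2 CPM in IRF8KO against 113, 118 and 96 CPM in WT, with no overlap. Its log2 fold change was -2.14 (SE 0.422, adjusted p = 0.00279). Casp4 was 0, 1.69 and 0.128 CPM in IRF8KO against 11.4, 11.7 and 10.9 CPM in WT, a log2 fold change of -4.22 (SE 1.19, adjusted p = 0.0201). Gsdmd, the pore-forming substrate of both caspases, was 73.8, 35.5 and 20.9 CPM against 200, 103 and 180 CPM, a log2 fold change of -1.89 (SE 0.596, adjusted p = 0.0326). All 3 genes were lower in every IRF8KO library than in every WT library. The homeostatic list took 0.311% to 0.686% of counts in these IRF8KO libraries and 5.1% to 5.76% in WT. Its part in the lower levels was not tested.

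Il1b was 58.5, 83.7 and 45.9 CPM in IRF8KO against 2.3, 1.94 and 1.22 CPM in WT. The lowest IRF8KO library was far above the highest WT library. The log2 fold change was 4.97 (SE 0.684, adjusted p = 0.000234), the only rise called among the members. The neutrophil, red blood cell, oligodendrocyte, astrocyte and monocyte lists were higher in the same libraries and the share of reads in genes was lower, with the values given above. Genes of border macrophages, the macrophages of meninges and vessels, took 0.0548% to 0.0813% of counts in IRF8KO and 0.000991% to 0.00137% in WT, with 3 of 9 list genes (Cbr2, Folr2 and Cd209f) at 0 in IRF8KO. Their part in the result was not tested.

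Casp1, which cleaves both cytokines, was not called. It was 45.1, 46.6 and 30.4 CPM in IRF8KO against 58.9, 61.2 and 42.6 CPM in WT, and the ranges overlapped (log2 fold change -0.42, SE 0.338, adjusted p = 0.391). Nlrp3, the sensor of potassium efflux and membrane damage, was 7.18 ± 4.28 against 12.7 ± 4.33 CPM (adjusted p = 0.68). Il18 was 13.9 ± 4.35 against 29.4 ± 11.9 CPM (SD, n = 3 each; adjusted p = 0.176). Nlrc4, which with NAIP proteins senses bacterial flagellin and secretion needles, had 0 counts in all 12 libraries aged 9 months and was not tested. Casp4 was no longer called without WT replicate 1 or 2 (adjusted p = 0.0527 and 0.0534), and Gsdmd lost its call without any of 5 libraries (WT 1 or 3, IRF8KO 2 or 3, 5xFAD 2; 0.0516 to 0.0891). The log2 fold change became -2.97 for Pycard and -7.21 for Casp4 without IRF8KO replicate 2, and -2.63 for Gsdmd and -10.35 for Nlrp1b without IRF8KO replicate 1.

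**Figure D2:**
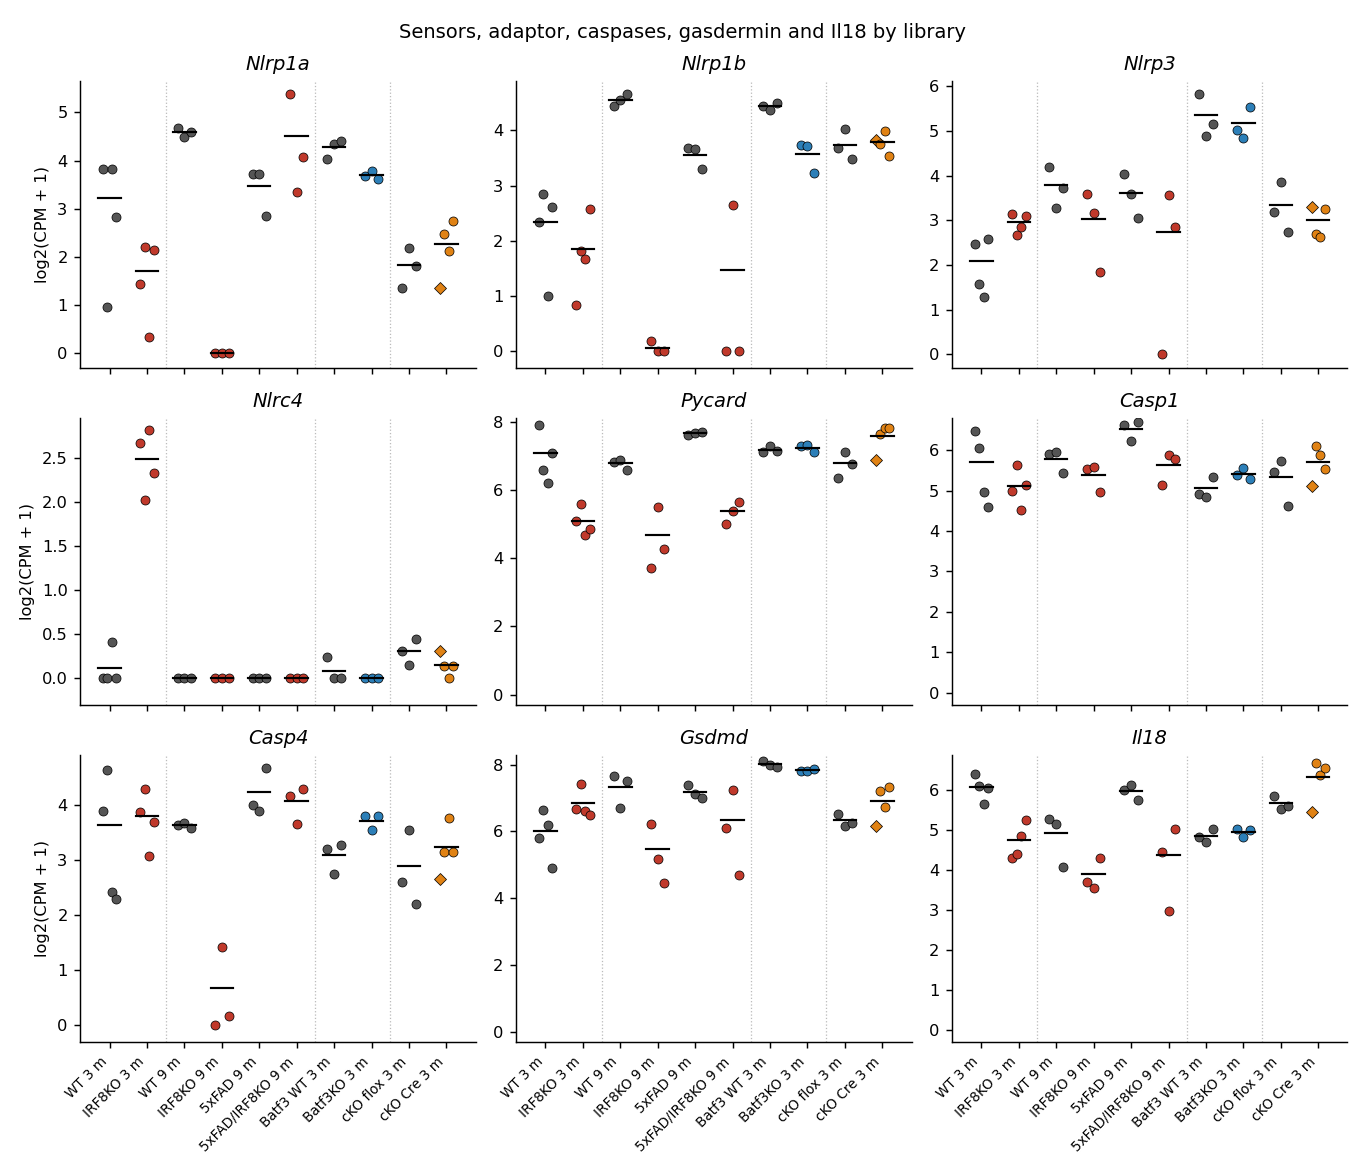
log2(CPM + 1) of the 9 other members by library (TMM scaling within each experiment). Each point is a library, the line is the group mean and the diamond is the library labelled Cre replicate 1. Nlrp1a is at 0 in IRF8KO at 9 months, Nlrc4 is above 3 CPM in the 4 IRF8KO libraries at 3 months and at or below 0.361 CPM elsewhere, and Pycard is low in all 3 germline groups without Irf8.

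The wider pathway at 9 months was described from 46 genes in 5 lists. Among the antagonists and other ligands of the IL-1 family, 4 of 5 were called higher in IRF8KO and none was called lower. Il1rn, the secreted receptor antagonist, was 369, 93.5 and 67.4 CPM in IRF8KO against 0.307, 0 and 0 CPM in WT, 845-fold higher (95% counting interval 234 to 6978; adjusted p = 5.84e-05). Il18bp, which neutralises interleukin-18, was 30.1 ± 22.6 against 1.58 ± 1.37 CPM (adjusted p = 0.00385). Il36g, listed under its older symbol Il1f9 in the annotation, had 0 counts in WT and was 126 ± 47.8 CPM in IRF8KO, at least 397-fold higher. The alarmin Il33 also rose, to 68.8 ± 16.2 CPM from 0.102 ± 0.177 (SD, n = 3 each; 324-fold, 95% counting interval 89.5 to 2677). Il1a, the other ligand of the interleukin-1 receptor, was 19.5, 47.3 and 16.7 CPM in IRF8KO against 113, 135 and 120 CPM in WT, without overlap. Its means were 27.8 ± 16.9 and 123 ± 11.4 CPM, and it was not called (edgeR, adjusted p = 0.173).

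Of the receptors and signalling genes, 3 of 14 tested were higher and 1 lower, a share like the 28.3% of all genes called. The decoy receptor Il1r2 rose from 1.58 ± 1.79 to 112 ± 18.4 CPM, the interleukin-18 receptor subunit Il18rap from 1.56 ± 0.364 to 75.1 ± 43.7, and Irak3, which dampens signalling by IRAK kinases, from 4.79 ± 2.14 to 122 ± 59.8. The interleukin-33 receptor Il1rl1 fell from 12.5 ± 3.86 to 0.436 ± 0.626 CPM (SD, n = 3 each). Of 14 sensors and regulators tested, 1 rose and 3 fell, again near the share of all genes. Nlrp12 rose from 0 counts in WT, with libraries that overlapped (36.3 ± 43.4 CPM in IRF8KO). Naip6 had 0 counts in IRF8KO and was 16.7 ± 1.11 CPM in WT, at least 122-fold lower, and the ATP-gated channel P2rx7 fell from 235 ± 39 to 47.1 ± 38.3 CPM. Txnip, which binds NLRP3, fell from 351 ± 83 to 120 ± 54 CPM.

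Of 5 effectors, Casp8 fell from 183 ± 23.2 to 48.6 ± 28.2 CPM and Casp12 from 1.85 ± 0.775 CPM to 0 counts. Serpinb1a, an inhibitor of neutrophil proteases, rose from 0 counts to 647 ± 211 CPM, at least 1992-fold. Among 4 NF-kB genes, Nfkb1 fell from 183 ± 11.6 to 29.3 ± 19 CPM and Rela from 177 ± 26.8 to 72.9 ± 33.7 CPM (SD, n = 3 each), and none was called higher. The genes that rose did so in the libraries in which the neutrophil list took 6.46% to 9.05% of counts, and its part in their rise was not tested.

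**Figure D3:**
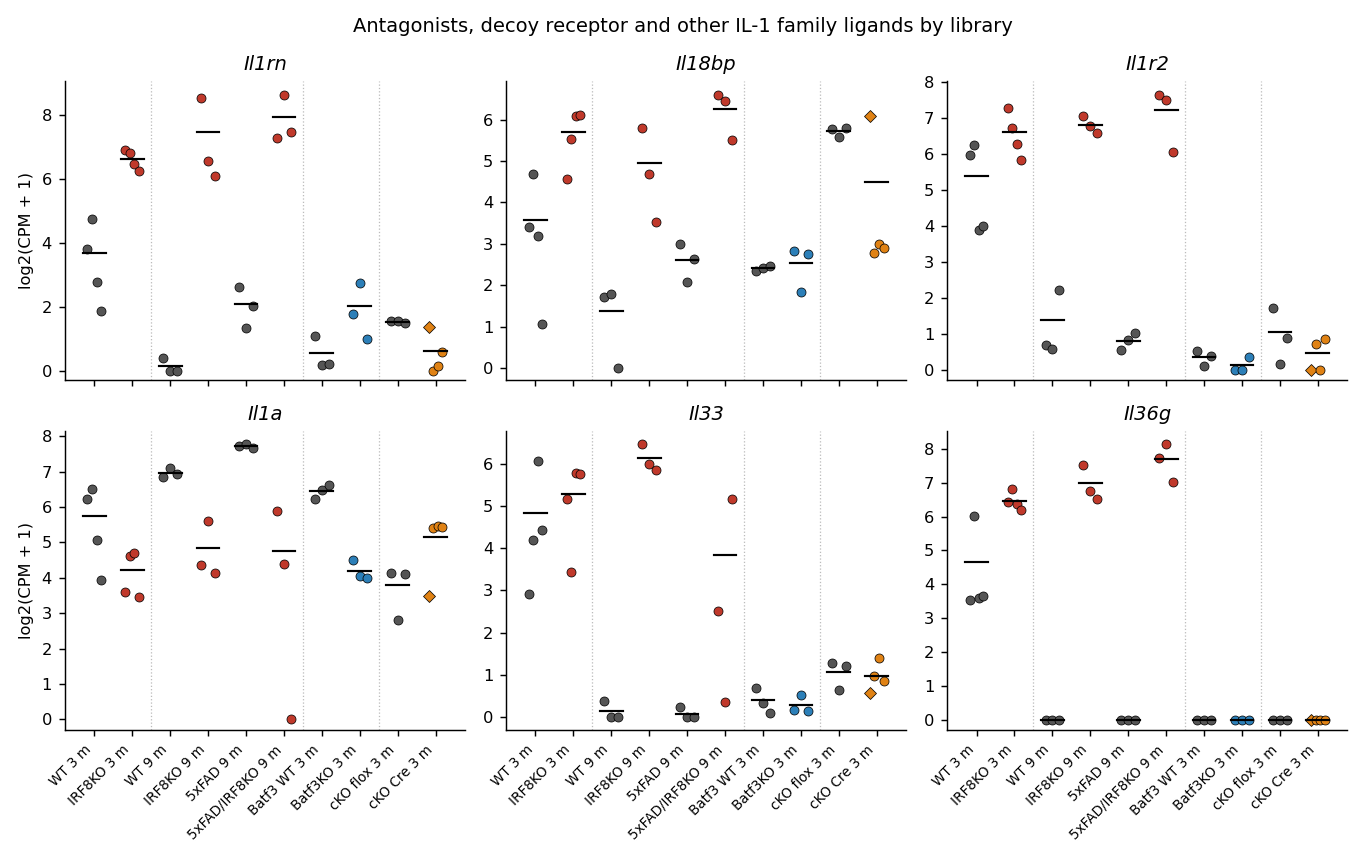
log2(CPM + 1) by library of the antagonists Il1rn and Il18bp, the decoy receptor Il1r2 and the ligands Il1a, Il33 and Il36g. Points are libraries, lines are group means and the diamond is the library labelled Cre replicate 1. Il36g is at 0 in all libraries of the Batf3KO and conditional experiments and at 71.8 CPM or more in every germline library without Irf8.

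On the 5xFAD background, the comparison of 5xFAD/IRF8KO with 5xFAD called 2 of 9 members, against 27.8% of 14604 genes (18% higher and 9.72% lower), with a median log2 fold change of -0.91 over members and 0.24 over all genes. Il1b was 118, 245 and 122 CPM in 5xFAD/IRF8KO and 5.73, 12.2 and 31.1 CPM in 5xFAD, with no overlap and a log2 fold change of 3.34 (SE 0.591, adjusted p = 0.00145). Without 5xFAD replicate 3 it was 4.09. Pycard was 31.4, 40.6 and 49.7 CPM against 194, 204 and 209 CPM, a log2 fold change of -2.32 (SE 0.421, adjusted p = 0.00173). The neutrophil list took 8.21% to 14.6% of counts in 5xFAD/IRF8KO and 2.52e-05% to 0.000207% in 5xFAD, where 5 of its 13 genes were at 0. Border macrophage genes took 0.0752% to 0.0895% in 5xFAD/IRF8KO against 0.00128% to 0.00342% in 5xFAD, and red blood cell genes 1.4% to 9.03% against at most 0.000622%. A list of 9 immediate early genes that respond to dissociation took 0.0517% to 0.109% against 0.0353% to 0.0443%. The homeostatic list was lower, at 0.483% to 0.751% against 5.05% to 5.53%. The part of these lists in the Il1b and Pycard differences was not tested.

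The other members were not called on that background. Il18 was 20.7, 6.86 and 31.7 CPM in 5xFAD/IRF8KO and 62.7, 69.3 and 53.3 CPM in 5xFAD, without overlap (log2 fold change -1.64, SE 0.58, adjusted p = 0.0522). Casp1 was 34.2, 57.8 and 54.3 against 98.2, 74.6 and 102 CPM, also without overlap (log2 fold change -0.91, SE 0.338, adjusted p = 0.0634). DESeq2 called both (adjusted p = 0.0169 for Il18 and 0.0185 for Casp1). In edgeR, Il18 passed without WT replicate 3, any IRF8KO library or 5xFAD/IRF8KO replicate 3 (0.027 to 0.0498), and Casp1 without any IRF8KO library (0.0363 to 0.0402). Nlrp1b was detected in 1 of the 3 5xFAD/IRF8KO libraries, at 5.28 CPM, and was 11.9, 11.7 and 8.8 CPM in 5xFAD. Its log2 fold change moved from -2.61 (adjusted p = 0.252) to -9.16 (0.00164) without that library. Nlrp1a, Nlrp3, Casp4 and Gsdmd overlapped between the groups.

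In the wider pathway the same comparison called 4 of 5 ligands and antagonists higher: Il1rn (244 ± 135 against 3.27 ± 1.85 CPM), Il18bp (75.7 ± 27.5 against 5.13 ± 1.9), Il33 (13.2 ± 18.7 against 0.0607 ± 0.105) and Il36g (207 ± 75.4 CPM against 0 counts). Il1a was 58.3, 20 and 0 CPM in 5xFAD/IRF8KO against 210, 217 and 201 CPM in 5xFAD, without overlap, and was not called. Of 14 receptors and signalling genes, Il1r2, Il18rap and Irak3 rose and Il1rl1 fell, a share like the 27.8% of all genes called. Of 14 sensors and regulators, the same number were called, of which Nlrp12 and the NLRP1 inhibitor Dpp8 rose, and Naip6 and Gbp5 fell. Of 5 effectors, Serpinb1a and Gsdme rose while Casp8 and Casp12 fell. Gsdme, which encodes the gasdermin cut by caspase-3, was 109 ± 55 CPM in 5xFAD/IRF8KO and 10.9 ± 1.83 in 5xFAD (SD, n = 3 each; adjusted p = 0.00192). No NF-kB gene was called.

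With Irf8 intact, 5xFAD differed from WT at 9 months in 1 of 9 members, against 1.99% of genes called (1.81% higher and 0.178% lower), and medians of 0.64 over members and 0.00 over all genes. Il1b was 5.73, 12.2 and 31.1 CPM in 5xFAD and 2.3, 1.94 and 1.22 CPM in WT, with no overlap and a log2 fold change of 2.99 (SE 0.657, adjusted p = 0.0407). The 3 5xFAD libraries spanned a wider range than the WT libraries. The call was lost without any WT library (0.151 to 0.241), without 5xFAD replicate 2 or 3 (0.123 and 0.197), and without 4 libraries of the other groups that share the estimate of spread (IRF8KO 1, 2 or 3 and 5xFAD/IRF8KO 1; 0.0502 to 0.0566). It was also lost with DESeq2's size factors in edgeR (0.0551). Without 5xFAD replicate 3 the log2 fold change was 2.13. Neutrophil genes were near 0 in both groups, as given above, and border macrophage genes took 0.00128% to 0.00342% of counts in 5xFAD against 0.000991% to 0.00137% in WT. A list of 9 immediate early genes that respond to dissociation took 0.0353% to 0.0443% in 5xFAD and 0.11% to 0.239% in WT, without overlap, and its part in the result was not tested.

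Several members separated 5xFAD from WT without being called. Pycard was 194, 204 and 209 CPM in 5xFAD and 113, 118 and 96 CPM in WT (log2 fold change 0.89, SE 0.406, adjusted p = 0.442). Casp1 was 98.2, 74.6 and 102 against 58.9, 61.2 and 42.6 CPM (0.75, SE 0.339, adjusted p = 0.432), and Il18 was 62.7, 69.3 and 53.3 against 37.9, 34.5 and 15.8 CPM (1.06, SE 0.575, adjusted p = 0.59). Nlrp1a was lower, at 12.1, 12.1 and 6.21 CPM against 24.6, 21.4 and 23.1 CPM (-1.18, SE 0.762, adjusted p = 0.737). Nlrp1b (10.8 ± 1.74 against 22.4 ± 1.87 CPM) and Casp4 (17.7 ± 5.8 against 11.3 ± 0.358 CPM; SD, n = 3 each) also had separate libraries. These groups did not overlap, but the differences did not pass after adjustment over all genes. The share of all genes whose libraries separate in this way is not given here, so the separation is not a result about the members. None of the 42 wider-pathway genes tested was called, with 0 of 14 sensors and regulators, 5 effectors, 5 ligands and antagonists, 14 receptors and signalling genes and 4 NF-kB genes.

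The effect of 5xFAD in the absence of Irf8 and the interaction of both genotypes singled out Nlrp1a. Nlrp1a was 40.7, 9.17 and 15.8 CPM in 5xFAD/IRF8KO and had 0 counts in all 3 IRF8KO libraries, at least 164-fold higher (adjusted p = 0.0198). That floor covers counting error only, not the spread between libraries. In 5xFAD/IRF8KO, for example, Nlrp3 had 0, 117 and 67 counts and Nlrp1b 0, 57 and 0. Nlrp1a was the only member called, against 0.164% of genes called in that comparison (0.123% higher and 0.0411% lower). In the interaction it was again the only member called, against 0.438% of genes (0.192% higher and 0.247% lower), with a fitted coefficient of 11.41 (SE 1.45, adjusted p = 0.0212) that rests on a group at 0. The fitted values were 9.33 and 10.49 without 5xFAD/IRF8KO replicate 1, against 10.24 and 11.41 with all libraries. Both calls were lost without any single WT or 5xFAD library (adjusted p = 0.0565 to 0.0747 and 0.0525 to 0.14).

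Casp4 had a like pattern, at 16.9, 11.6 and 18.5 CPM in 5xFAD/IRF8KO and 0, 1.69 and 0.128 CPM in IRF8KO. It did not pass the threshold (log2 fold change 4.68, SE 1.21, adjusted p = 0.144), and it did with DESeq2 (8.03e-06) and without IRF8KO replicate 2 (0.0175). Il1b was 118, 245 and 122 CPM in 5xFAD/IRF8KO and 58.5, 83.7 and 45.9 CPM in IRF8KO, without overlap, but was not called (1.37, SE 0.543, adjusted p = 0.301). The interaction was -1.63 for Il1b (SE 0.833, adjusted p = 0.413) and 4.05 for Casp4 (adjusted p = 0.237), the latter 6.96 (0.0382) without IRF8KO replicate 2. Member medians were 0.90 for the 5xFAD effect without Irf8 and -0.16 for the interaction, against 0.00 and -0.13 over all genes. The 9-month comparisons share their control libraries, so they are not independent of each other. No wider-pathway gene was called in either comparison, of 42 tested.

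**Figure D4:**
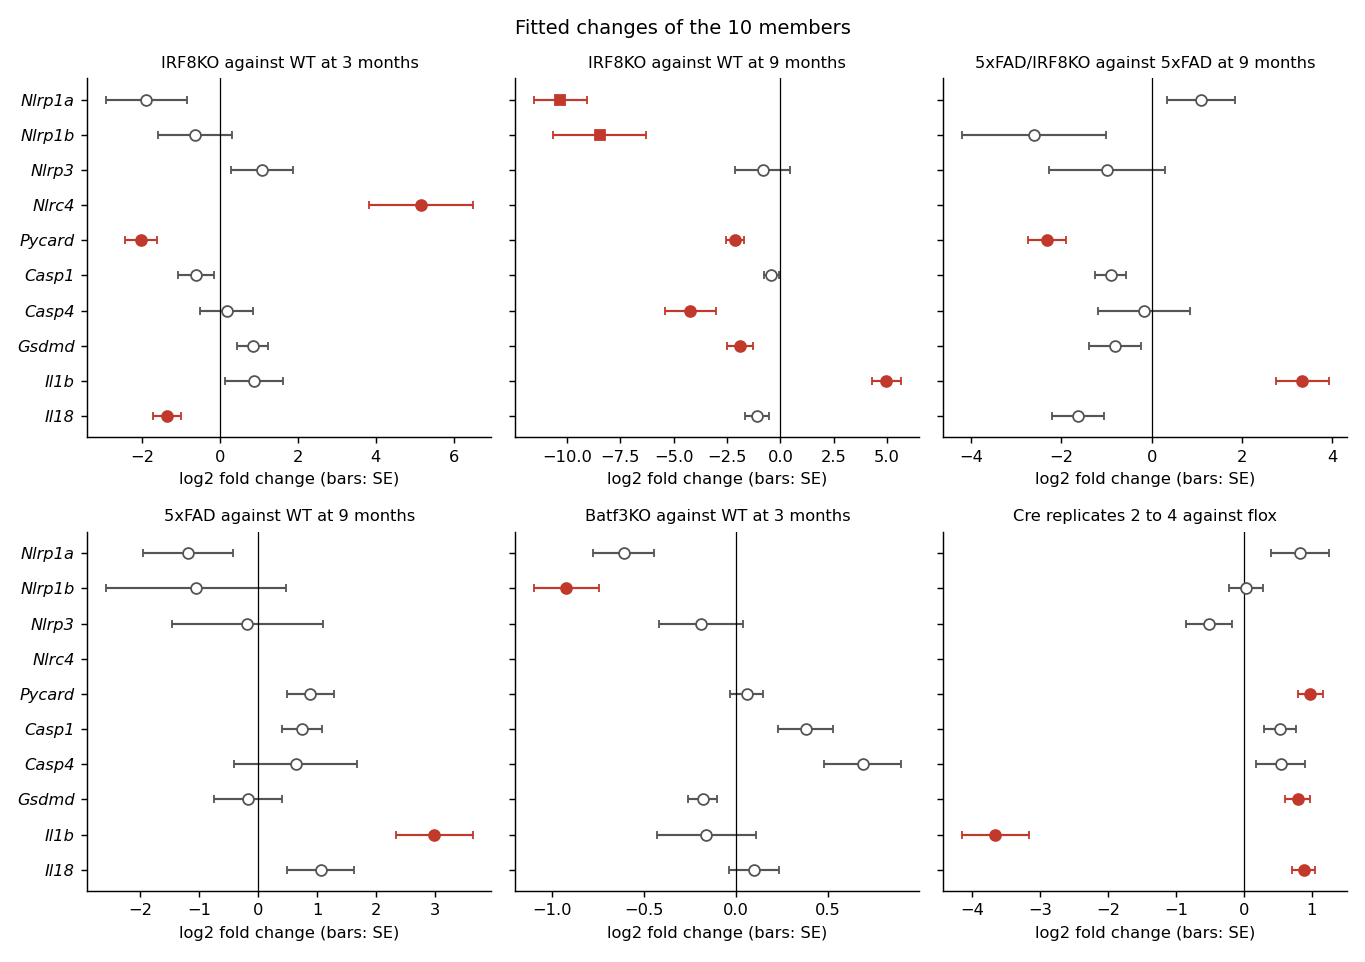
Fitted log2 fold changes of the 10 members in 6 comparisons, with SE bars and a different horizontal scale in each panel. Filled symbols passed the adjusted p threshold, squares mark genes with 0 or 1 count in the lower group, whose fitted value is not a bound, and Nlrc4 is blank where it was not tested. Pycard lies left of 0 in the 3 germline Irf8 comparisons and right of 0 in Cre replicates 2 to 4 against flox.

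At 3 months, the same germline knockout differed from its WT group in 3 of 10 members, against 7.39% of 13121 genes called (4.15% higher and 3.24% lower). Pycard was 32.8, 47.2, 24.8 and 27.7 CPM in IRF8KO against 238, 94.9, 73.4 and 135 CPM in WT, with no overlap. The median over members was -0.22, against -0.02 over all genes. The Pycard log2 fold change was -2.03 (SE 0.41, adjusted p = 0.0126). Il18 was 18.6, 20, 27.6 and 37 CPM in IRF8KO against 83.5, 67.6, 49.2 and 65.4 CPM in WT, also with no overlap (-1.36, SE 0.354, adjusted p = 0.0369). Nlrc4 was the only member called higher, with 34, 17, 88 and 26 counts (5.33, 3.06, 6 and 4.01 CPM) in IRF8KO and 0, 0, 6 and 0 counts in WT (5.16, SE 1.34, adjusted p = 0.0367).

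These calls depended on single libraries. Nlrc4 lost its call without any one of 7 libraries (adjusted p = 0.0625 to 0.112), all but WT replicate 3, without which its fitted value was 8.13. Il18 lost its call without WT replicate 1 or 2 or any IRF8KO library (0.0535 to 0.134), and Pycard without IRF8KO replicate 1 (0.0569). Levels of Nlrc4 stayed at or below 0.361 CPM in the 9 other groups.

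Il1b overlapped between the groups at 3 months. It was 27.7, 35, 25 and 44.4 CPM in IRF8KO against 52.1, 14.9, 4.6 and 2.67 CPM in WT (log2 fold change 0.88, SE 0.748, adjusted p = 0.524). The WT libraries spanned a range that held every IRF8KO value. The fold change was 2.21 without WT replicate 1 (adjusted p = 0.058) and 0.51 to 1.00 without any other single library. Neutrophil genes took 4.8%, 4.32%, 0.858% and 5.39% of counts in these WT libraries and 7.62% to 16.5% in IRF8KO, whereas WT at 9 months had at most 0.00033%. Border macrophage genes took 0.0821% to 0.132% of counts in IRF8KO against 0.00286% to 0.0169% in WT. Their part in these levels was not tested.

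The remaining members were not called at 3 months. Gsdmd was 101, 172, 96 and 89.1 CPM in IRF8KO against 54.6, 99.1, 71.9 and 29.3 CPM in WT (0.84, SE 0.393, adjusted p = 0.222). Nlrp3 was 7.84, 5.41, 6.21 and 7.55 CPM against 4.55, 1.98, 1.44 and 4.95 CPM, without overlap (1.08, SE 0.797, adjusted p = 0.453). Nlrp1a was 2.25 ± 1.56 against 8.33 ± 5.92 CPM, Nlrp1b 2.61 ± 1.72 against 4.09 ± 2.24, Casp1 33.7 ± 11 against 51.6 ± 30.5 and Casp4 12.8 ± 4.55 against 11.4 ± 9.38 (SD, n = 4 each), all with overlapping libraries.

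In the wider pathway at 3 months, 5 genes were called higher and none lower among 41 tested. Over all genes, 4.15% were called higher and 3.24% lower. Il1rn was 119, 111, 87.6 and 75.1 CPM in IRF8KO against 13.2, 26.2, 5.93 and 2.67 CPM in WT (3.04, SE 0.593, adjusted p = 0.011). Irak3 rose from 7.16 ± 4.11 to 43.7 ± 6.1 CPM and Nlrp12 from 2.46 ± 1.46 to 31.8 ± 5.19. Serpinb1a rose from 97.5 ± 76.8 to 614 ± 388 CPM, and Dpp9, an inhibitor of NLRP1, from 15.1 ± 2.01 to 37.6 ± 4.55 (SD, n = 4 each; adjusted p = 0.0269 and 0.0432). These 5 were 2 of 14 sensors and regulators, 1 of 4 effectors, 1 of 5 ligands and antagonists and 1 of 14 receptors and signalling genes, with 0 of 4 NF-kB genes.

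The difference between the IRF8KO effects at 9 and at 3 months was tested directly, and 5 of 9 members passed, against 24% of 15512 genes (18% higher and 5.92% lower). The effect on Il1b was higher at 9 months, with a log2 difference of 4.19 (SE 1.13, adjusted p = 0.0127), or 2.92 without WT replicate 1 at 3 months (0.0209). The effects were lower at 9 months for Nlrp1a (-8.31, SE 1.87, adjusted p = 0.00482), Nlrp1b (-7.73, SE 1.6, adjusted p = 0.00219), Casp4 (-4.34, SE 1.46, adjusted p = 0.0398) and Gsdmd (-2.67, SE 0.647, adjusted p = 0.00645). Values for Nlrp1a and Nlrp1b rest on 0 and 1 count and are fitted values, not bounds.

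The effect on Pycard was not shown to differ between ages (-0.05, SE 0.64, adjusted p = 0.981), nor those on Casp1 (0.25, SE 0.648), Nlrp3 (-1.84, SE 1.16) and Il18 (0.35, SE 0.608; adjusted p = 0.824, 0.269 and 0.729). The median difference was -1.84 over members and 0.40 over all genes. In the wider pathway, 6 of 42 genes tested had a higher effect at 9 months (Serpinb1a, Il1rn, Il33, Il36g, Il1r2 and Il18rap) and 8 a lower one (Naip6, Txnip, P2rx7, Dpp9, Irak1, Irak2, Nfkb1 and Rela). Over all genes, 18% were called higher and 5.92% lower. Casp4 lost its call without any one of 10 libraries (adjusted p = 0.0531 to 0.0857), and its value was -7.16 without IRF8KO replicate 2 at 9 months. The value for Nlrp1b was -9.48 and that for Gsdmd -3.30 without IRF8KO replicate 1 at 9 months. The ages were profiled with WT groups whose neutrophil, red blood cell, oligodendrocyte and astrocyte shares differed, so age and the content of the libraries cannot be told apart.

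Loss of Batf3 went with a lower level of 1 sensor gene and no called change of Il1b. In this experiment neutrophil genes took 0.000189% to 0.000477% of counts in WT and 0.000492% to 0.000516% in Batf3KO, with 7 and 6 of 13 genes at 0. Of 9 members tested, 1 was called, lower in Batf3KO, against 3.83% of 13128 genes (1.41% higher and 2.42% lower). Nlrp1b was 12.4, 12.1 and 8.39 CPM in Batf3KO and 20.7, 19.6 and 21.7 CPM in WT, with no overlap (log2 fold change -0.92, SE 0.178, adjusted p = 0.0121). Its neighbour Nlrp1a was 11.8, 12.8 and 11.3 against 15.4, 19.4 and 20.3 CPM, also without overlap, and just missed the threshold (-0.61, SE 0.166, adjusted p = 0.0596). DESeq2 called it (0.0334), and so did edgeR without WT replicate 1 (0.0485). Without WT replicate 3, Casp1 was called higher (0.56, adjusted p = 0.0403). The median over members tested was -0.16, and 0.00 over all genes.

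Il1b was 3.73, 4.27 and 3.28 CPM in Batf3KO and 4.53, 4.15 and 3.94 CPM in WT (-0.16, SE 0.268, adjusted p = 0.807). Casp4 was 12.8, 10.6 and 12.8 against 8.19, 5.68 and 8.64 CPM, without overlap (0.69, SE 0.209, adjusted p = 0.0909). Casp1 was 41.9 ± 4.21 against 32.3 ± 6.48 CPM, Pycard 151 ± 11 against 145 ± 9.67, Gsdmd 227 ± 3.42 against 257 ± 15.8, Nlrp3 34.9 ± 9.41 against 39.7 ± 14.1 and Il18 29.9 ± 2.12 against 27.9 ± 3.33 (SD, n = 3 each). None of these 7 was called.

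The DNA sensor Aim2 and the ligand Il1a fell in Batf3KO, the only wider-pathway genes called of 36 tested, against 3.83% of all genes called. Il1a was 21.6, 15.6 and 14.8 CPM in Batf3KO and 73.4, 88.8 and 97 CPM in WT, with no overlap (-2.32, SE 0.157, adjusted p = 1.54e-06). Aim2 was 29.1, 24.9 and 26.6 against 38.1, 46 and 50.3 CPM (-0.74, SE 0.135, adjusted p = 0.00827). These were 1 of 12 sensors and regulators and 1 of 3 ligands and antagonists, with 0 of 4 effectors, 13 receptors and signalling genes and 4 NF-kB genes.

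In the conditional experiment, no member and no gene was called with all 7 libraries (0% of 15512 genes; 1407 had an unadjusted p under 0.05, and DESeq2 called 161). Without the library labelled Cre replicate 1, 4 of 9 members tested were called, against 6.24% of 15264 genes (3.74% higher and 2.5% lower). This set of libraries was chosen because of the Irf8 level in that library. Batf3 also separated it from the other Cre libraries: replicates 2 to 4 of Cre held 34.7, 67.6 and 47.5 CPM of Batf3, whereas this library held 1.32 CPM. The flox values of Batf3 were 4.32, 4.57 and 1.93 CPM. The mean of Batf3 was 32.4 CPM in WT at 3 months, 18.8 in WT at 9 months and 24.6 in WT of the Batf3KO experiment, so the flox controls were below those WT groups. From flox to Cre replicates 2 to 4 it rose (log2 fold change 3.78, edgeR, adjusted p = 3.72e-08). In germline IRF8KO it was lower than in WT, at 0.764 CPM at 3 months and 0 in IRF8KO and 5xFAD/IRF8KO at 9 months. The conditional minus the germline effect on Batf3 at 3 months was 8.75 with all libraries (edgeR, adjusted p = 0.00147). Casp8 also placed the library labelled Cre replicate 1 with flox. It was 52.2, 53.4 and 45.6 CPM in flox and 51.3 CPM in that library, against 127, 102 and 101 CPM in Cre replicates 2 to 4. Irf8 was lower in Cre replicates 2 to 4, as their labels say, but Batf3 moved opposite to its change in germline IRF8KO. What these levels mean for the conditional results was not tested. The direction of those results rests on the flox and Cre labels. Pycard, Gsdmd and Il18 were higher and Il1b was lower in Cre replicates 2 to 4 than in flox. The median log2 fold change was 0.54 over the members tested and -0.01 over all genes.

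Il1b was 60.6, 7.66 and 44.7 CPM in flox and 2.45, 3.73 and 2.75 CPM in Cre replicates 2 to 4, with 34.7 CPM in the library labelled Cre replicate 1. Every Cre library with reduced Irf8 was below every flox library, though flox replicate 2 was near them. The log2 fold change was -3.66 without replicate 1 (SE 0.495, adjusted p = 3.54e-05) and -1.80 with it (adjusted p = 0.55). Border macrophage genes took 0.0138%, 0.0121% and 0.0168% of counts in flox, 0.00107%, 0.000742% and 0.00123% in Cre replicates 2 to 4, and 0.0212% in the library with the unreduced Irf8 level. Their marker Pf4 ran from 26.7 to 64.7 CPM in flox, and 2 of 9 list genes (Folr2 and Cd209f) were at 0 there. The dissociation list took 0.0201% to 0.0291% in flox and 0.0163%, 0.0157% and 0.0143% in Cre replicates 2 to 4. Neutrophil genes took 0.00173% to 0.0112% in flox and 2.03e-05% to 0.00427% in those Cre libraries. The part of these lists in the Il1b difference was not tested.

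Pycard was 81.4, 139 and 108 CPM in flox, 198, 223 and 227 CPM in Cre replicates 2 to 4 and 116 CPM in the library labelled Cre replicate 1. Its log2 fold change was 0.98 without that library (SE 0.19, adjusted p = 0.00189) and 0.80 with it (adjusted p = 0.306). Il18 was 57.2, 45.3 and 47.4 CPM in flox and 102, 81.6 and 92.6 CPM in Cre replicates 2 to 4 (0.88, SE 0.171, adjusted p = 0.00203), and 43.1 CPM in replicate 1. Gsdmd was 91.7, 71.1 and 75.5 CPM against 147, 105 and 159 CPM (0.79, SE 0.185, adjusted p = 0.0103), and 71.1 CPM in replicate 1. With replicate 1 included, the values were 0.67 for Il18 (adjusted p = 0.413) and 0.60 for Gsdmd (adjusted p = 0.47).

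The sensors and Casp4 did not pass without replicate 1 either. Nlrp1a was 4.55 ± 1.16 CPM in Cre replicates 2 to 4 and 2.54 ± 0.993 in flox, Nlrp1b 12.7 ± 2.1 and 12.4 ± 2.55, Nlrp3 6.37 ± 1.9 and 9.06 ± 4.02, Casp1 57.1 ± 11.3 and 39.5 ± 14.5, and Casp4 9.4 ± 2.67 and 6.43 ± 3.71 (SD, n = 3 each). Adjusted p-values ran from 0.262 to 0.985. Nlrc4 had 6 counts in flox and 4 in Cre over all libraries and was not tested.

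In the wider pathway without replicate 1, 4 genes were called higher and 3 lower among 35 tested. Over all genes, 3.74% were called higher and 2.5% lower. Il18bp was 53.5, 46.5 and 54.7 CPM in flox and 5.85, 7 and 6.42 CPM in Cre replicates 2 to 4 (-3.01, SE 0.208, adjusted p = 3.98e-09), with 67.4 CPM in replicate 1. Il1rn fell from 1.89 ± 0.0732 to 0.209 ± 0.267 CPM (adjusted p = 0.0204) and the guanylate-binding protein gene Gbp2 from 15.6 ± 2.43 to 2.23 ± 0.923 (adjusted p = 7.86e-06). Il1a was 16.7, 5.95 and 16.3 CPM in flox and 41.6, 43.5 and 42.4 CPM in Cre replicates 2 to 4 (1.71, SE 0.275, adjusted p = 0.000258). Naip2, whose protein senses the rod of bacterial secretion systems, the flagellin sensor gene Naip5 and the caspase gene Casp8 also rose (adjusted p = 0.0215, 0.00243 and 0.000133). With replicate 1 included, none of these 7 was called.

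**Figure D5:**
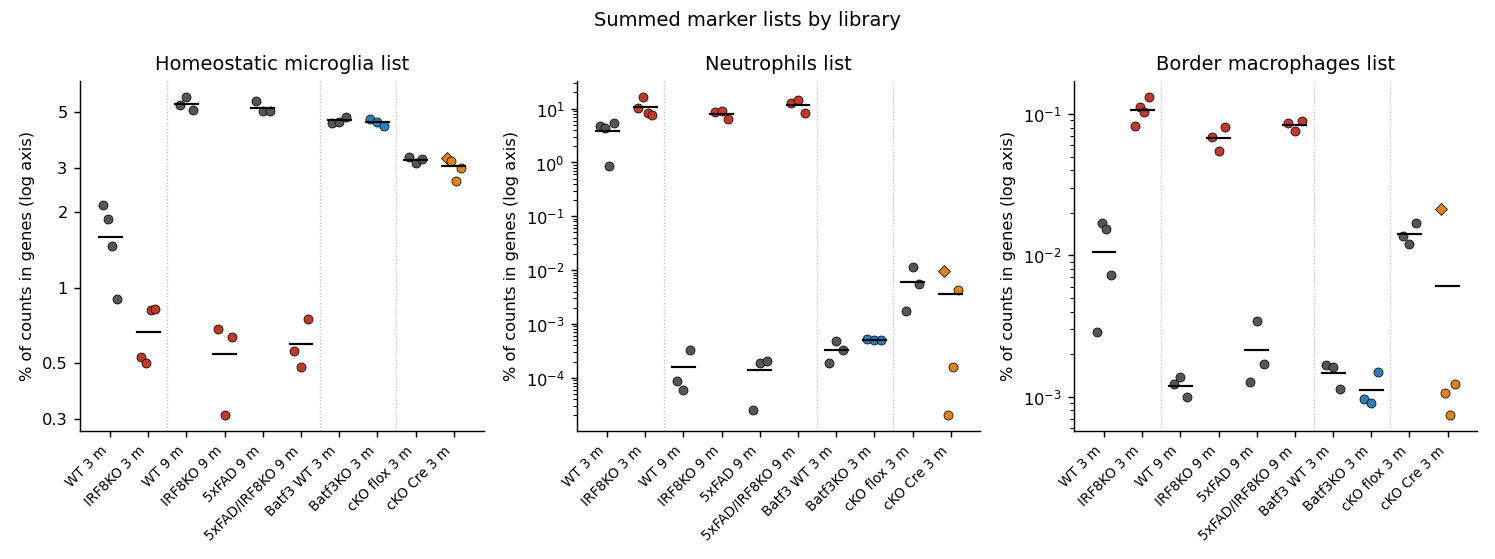
Share of counts in genes (%, log axis) taken by the summed homeostatic microglia, neutrophil and border macrophage lists in each library. Points are libraries, lines are group means and the diamond is the library labelled Cre replicate 1. The border macrophage list is at 0.00123% or less in Cre replicates 2 to 4 and between 0.0121% and 0.0212% in flox and in the library labelled Cre replicate 1.

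The conditional and germline effects at 3 months were compared directly. With all libraries, 3 of 10 members differed, against 7.04% of 17361 genes (4.37% higher and 2.68% lower). The conditional effect was higher for Pycard (log2 difference 2.89, SE 0.51, adjusted p = 0.00305) and for Il18 (2.11, SE 0.434, adjusted p = 0.00806). It was lower for Nlrc4 (-6.00, SE 1.62, adjusted p = 0.032), which had few counts in the conditional experiment and lost its call without any of 6 conditional libraries (0.0627 to 0.121), all but the one labelled Cre replicate 1. Its value was -9.28 without WT replicate 3. Without the library labelled Cre replicate 1, the values were 3.07 for Pycard (adjusted p = 0.00142), 2.32 for Il18 (0.00192), -6.57 for Nlrc4 (0.0361) and, newly called, -4.50 for Il1b (SE 1.14, adjusted p = 0.0246). In the wider pathway, 2 of 41 genes tested differed upward (Casp8 and Il1a) and 4 downward (Dpp9, Serpinb1a, Il1rn and Irak3) with all libraries. The medians were 0.51 over members and 0.27 over all genes. The knockouts were profiled in separate experiments whose libraries also differed in neutrophil, red blood cell, oligodendrocyte and astrocyte shares. The kind of knockout and the experiment therefore cannot be told apart. The direction of the conditional effect also rests on the flox and Cre labels, which were not tested. Batf3 was higher in Cre replicates 2 to 4 than in flox and lower in germline IRF8KO than in WT, as given above.

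Levels of different members were compared per kilobase of exon, on CPM scaled over 33 libraries. The length was that of all annotated exons of a gene merged, for example 3800 bases for Pycard and 1031 for Il18. It is not the length of the transcript expressed. The order between genes therefore depends on the annotation, and a gene whose expressed transcript is much shorter ranks too low. Gsdmd ranked first in 4 groups, WT at 9 months (58.2 CPM per kb), IRF8KO at 3 months (56.8), WT of the Batf3KO experiment (110) and Batf3KO (93.8). Il18 ranked first in WT at 3 months (72.4), flox (46.8) and Cre with all 4 libraries (72.7), Casp1 in 5xFAD (55.6), and Il1b in IRF8KO at 9 months (31.6) and 5xFAD/IRF8KO (82.6). In WT at 9 months Il1b was ninth of 10, at 0.823 CPM per kb. Nlrc4 was last in 9 groups, at 0 together with Nlrp1a in IRF8KO at 9 months, and in IRF8KO at 3 months, at 1.14 CPM per kb, it was eighth.

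The order of the other members over the 10 groups, again on CPM scaled over all libraries, put 5xFAD first for Pycard (184 ± 9.82), Casp1 (83.2 ± 14) and Casp4 (16.1 ± 5.56; SD, n = 3 each). IRF8KO at 9 months was last for Pycard (23.8 ± 16.1), Casp4 (0.575 ± 0.892), Gsdmd (42.1 ± 27.1), Il18 (13.4 ± 4.18), Nlrp1a (0 in all) and Nlrp1b (0.0428 ± 0.0741; n = 3 each). Pycard had 2 gaps larger than the SDs of neighbours, between WT of the Batf3KO experiment and flox and between WT at 9 months (94.1 ± 11) and 5xFAD/IRF8KO (39.5 ± 8.35). Nlrp3 was highest in WT of the Batf3KO experiment (40.7 ± 15.5) and Batf3KO (34.3 ± 9.88), apart from the 8 other groups, which ran from 3.62 ± 1.95 to 11 ± 3.64. Gsdmd was highest in the same 2 groups (262 ± 24.1 and 223 ± 7.21), which were apart from each other and from the rest. Casp1 had the smallest ratio of highest to lowest mean, from 32.8 ± 5.56 to 83.2 ± 14, and no neighbours in its order were apart.

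Among the members, the correlations of log2(CPM + 1) over the 33 libraries were highest for Nlrp1b with Pycard (Pearson r = 0.74) and Pycard with Il18 (0.67), and lowest for Nlrp1b with Il1b (-0.68) and Pycard with Il1b (-0.63). The genes most like each member were sought among 11123 genes averaging 5 CPM or more. They were Plin2 (0.89), Pilra (0.89) and Apoe (0.88) for Il1b, and Aif1 (0.91), Tnfrsf17 (0.91) and 2810025M15Rik (0.91) for Pycard. For Nlrp1b they were Rhobtb1 (0.93), Zfp697 (0.92) and Mlph (0.91), for Nlrp3 Tmc6 (0.90), Adck2 (0.88) and Tmem214 (0.87), and for Nlrc4 Ecm1 (0.83), Retnla (0.77) and Dok3 (0.77). Nlrp1a had Tceanc (0.80), Tmem64 (0.78) and Msl2 (0.77), Casp1 had Dcun1d5 (0.81), Psmd6 (0.80) and Pex2 (0.77), and Casp4 had Zbtb25 (0.82) and Bloc1s3 (0.81). Gsdmd had Rps6ka1, Txndc5 and Fermt3 (0.88 each), and Il18 had Ldhb, Commd4 and Ccdc107 (0.85 each). These libraries share groups, depth and cell content, so the correlations describe them and carry no test.

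All 10 members are protein-coding genes of GRCm38, and their positions bear on which reads could be counted. Nlrp1a (ENSMUSG00000069830.10) spans chr11:71092236-71144704 and Nlrp1b (ENSMUSG00000070390.12) chr11:71153102-71230733, both on the minus strand. Of the 55-base stretches of their transcripts, the read length, 1.52% and 1.13% occur in each other or in Nlrp1c-ps. Pycard (ENSMUSG00000030793.4, chr7:127989708-127993867, minus strand) has 12.8% of its exon bases overlapped by the antisense gene Gm45205, and Il1b (ENSMUSG00000027398.13, chr2:129364570-129371139, minus strand) has 1.31% overlapped by Il1bos. Since counts ignored strand, reads there cannot be assigned to one gene. Casp1 (ENSMUSG00000025888.5, chr9:5298517-5307265) and Casp4 (ENSMUSG00000033538.13, chr9:5308828-5336783) are neighbours on the plus strand, as is Il18 (ENSMUSG00000039217.13, chr9:50554827-50581840) on the same chromosome. Nlrp3 (ENSMUSG00000032691.14) lies at chr11:59541568-59566956, Nlrc4 (ENSMUSG00000039193.9) at chr17:74425438-74459142 and Gsdmd (ENSMUSG00000022575.5) at chr15:75862327-75867408.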

How the data were processed

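RNA was measured in 33 libraries of FACS-sorted mouse microglia, per the labels' protocols: isolation without enzymes, TRIzol, SMART-Seq v4 with 15 cycles, Nextera XT and paired reads of 55 bases, without molecular identifiers. The authors deposited unnormalized whole-number counts per gene, 1 file per library, in the column layout of STAR. The submitters' processing notes name STAR 2.5.2b, Picard 2.17.11, Subread, featureCounts and mm10, and the annotation is not given in the sources used here. Of 54146 identifiers, 52480 matched GENCODE M21 (GRCm38) with the version and 54079 without it.

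The column of counts that ignores strand was used. The 4 lines that total unassigned reads were dropped first, and counts in genes were 47.3% to 78.6% of all reads of a library. Groups came from the titles. Genes were tested with edgeR 4.0.16 in R 4.3.3 (quasi-likelihood test, default low-count filter, TMM scaling), with p-values adjusted over all genes tested by the Benjamini-Hochberg method and called under 0.05. The 12 libraries aged 9 months shared 1 model. CPM values use TMM factors within each of the 4 experiments, unless scaled over all 33 libraries. SE values come from the quasi-likelihood F statistic.

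A fold against a group at 0 uses 3 counts over that group. The script was tested on simulated data. There were 10 comparisons. Alternatives were size factors of DESeq2 in edgeR (RLE), no filter, all libraries in 1 model, a replicate block, DESeq2 1.42.0 and leaving out each library. Every member was named, wider-pathway genes were named where called, and the 3 genes most correlated with each member were given, except 1 for Casp4 that is not reported here. The members, the lists and the comparisons were chosen with earlier results of these data known. Promoter windows of 250 bases are from RefSeq. Replicate numbers were not treated as pairs, and no 2 libraries of a group agreed within sampling noise (lowest chi-square per degree of freedom 2.31).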

Additional observations from a re-analysis of the deposited data

Results flagged for a closer look

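In 3 of 30 combinations of member and 4-library group, 1 library stood apart from the others, where chance gives about 1 in 20. Nlrc4 in WT replicate 3 at 3 months had 0.333 CPM against 0 in the other WT libraries. Gsdmd in IRF8KO replicate 2 at 3 months had 172 CPM against 89.1 to 101 CPM. Il1b in the library labelled Cre replicate 1 had 34.7 CPM against 2.45 to 3.73 CPM in the other Cre libraries.

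The effect of 5xFAD on Nlrp1a differed between mice without and with Irf8 at 9 months (interaction 11.41 on the log2 scale, adjusted p = 0.0212, edgeR). The coefficient rests on a group at 0 counts. The call was kept in 6 of 12 fits that left out 1 library, and it was lost with the replicate block. Nlrp1a was higher in 3 of 3 5xFAD/IRF8KO libraries than in every IRF8KO library, and lower in 3 of 3 5xFAD libraries than in every WT library.

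The IRF8KO effect differed between 9 and 3 months for 5 members by the test of the difference. It was -8.31 for Nlrp1a, -7.73 for Nlrp1b, -4.34 for Casp4, -2.67 for Gsdmd and 4.19 for Il1b. With the flox and Cre groups as labelled, the conditional effect differed from the germline effect at 3 months by -6.00 for Nlrc4, 2.89 for Pycard and 2.11 for Il18.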

How the results depend on the processing

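Il1b, Pycard, Nlrp1a and Nlrp1b at 9 months kept their calls in IRF8KO against WT under every alternative tried, and Il1b and Pycard in 5xFAD/IRF8KO against 5xFAD. The count of members called moved by more than 1.5 times as follows, and the cause was not tested. With RLE size factors it was 0 for 5xFAD against WT. Without a filter it was 2 for 5xFAD/IRF8KO against IRF8KO, 2 for Batf3KO and 2 for the conditional knockout (Il1b and Pycard). With all 33 libraries in 1 model it was 0 for 5xFAD against WT, 3 for 5xFAD/IRF8KO against IRF8KO, 3 for the interaction and 0 for Batf3KO. With DESeq2 it was 4 for 5xFAD/IRF8KO against 5xFAD, 2 for 5xFAD/IRF8KO against IRF8KO, 2 for the interaction and 2 for Batf3KO.

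Leaving out 1 library at a time gave 0 to 3 members called for IRF8KO at 3 months, 4 to 6 at 9 months, 0 to 1 for 5xFAD, 2 to 4 for 5xFAD/IRF8KO against 5xFAD, 0 to 2 for 5xFAD/IRF8KO against IRF8KO and 0 to 2 for the interaction. It gave 1 to 2 for Batf3KO, 0 to 4 for the conditional knockout, 4 to 5 for the age difference and 2 to 4 for the conditional against the germline effect.

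Same-numbered libraries did not deviate together in every pair (correlations -0.0938 to 0.263 in the IRF8KO experiment at 3 months), so the numbers were not taken as pairs. With a replicate block, the members called were 1 for IRF8KO at 3 months, 0 for 5xFAD against WT, 0 for 5xFAD/IRF8KO against IRF8KO, 0 for the interaction and 1 for the conditional against the germline effect. The block ended the calls of Nlrc4 (adjusted p = 0.0542) and Il18 (0.0559) in IRF8KO at 3 months, where 3 of 4 pairs had a correlation over 0.1, of Il1b in 5xFAD (0.0857), of Nlrp1a in 5xFAD/IRF8KO against IRF8KO (0.0909) and in the interaction (0.0709), and of Nlrc4 (0.0895) and Il18 (0.0771) in the conditional against the germline effect. In the age difference Il1b lost its call under the block (3.38, adjusted p = 0.0522). Genes called under the block were 105 for 5xFAD, 0 for 5xFAD/IRF8KO against IRF8KO, 9 for the interaction, 216 for Batf3KO and 293 for the conditional against the germline effect.

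Counts of all genes called ranged more widely. DESeq2 called 2572 for IRF8KO at 3 months, 803 for 5xFAD, 838 for 5xFAD/IRF8KO against IRF8KO, 900 for the interaction, 796 for Batf3KO and 2281 for the conditional against the germline effect. Without a filter, the counts were 1655, 163, 320, 238 and 998 for the first 5 of these and 618 for the conditional knockout. In 1 model of 33 libraries they were 3300, 806, 1452, 1082 and 10, with 3 for the conditional knockout, 6836 for IRF8KO at 9 months, 6783 for 5xFAD/IRF8KO against 5xFAD and 6342 for the age difference. With RLE factors, 81% of calls for 5xFAD were higher (91% with TMM) and 62.5% for the interaction (43.8%). In 1 model of 33 libraries, 46% were higher for 5xFAD/IRF8KO against IRF8KO (75%), 20% for Batf3KO (36.8%) and 50.6% for the conditional against the germline effect (62%). That model moved the median of all genes by 0.30 for IRF8KO at 9 months, -0.16 for the interaction, 0.16 for the age difference and -0.17 for the conditional against the germline effect. RLE moved it by 0.17 for the age difference.

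Uncalled values near 0 changed sign. Pycard in the age difference was 0.16 with RLE factors and 0.16 with DESeq2, and Nlrp3 in the interaction was 0.02 with the replicate block. On leaving out 1 library, Casp4 ranged from -0.13 to 0.85 in IRF8KO at 3 months, from -0.33 to 0.04 in 5xFAD/IRF8KO against 5xFAD and from -0.40 to 0.85 in the conditional against the germline effect. Nlrp3 ranged from -0.47 to 0.06 in 5xFAD, -1.21 to 0.25 in 5xFAD/IRF8KO against IRF8KO, -1.04 to 0.42 in the interaction, -0.43 to 0.14 in Batf3KO and -0.62 to 0.04 in the conditional knockout. Nlrp1b ranged from -1.74 to 6.57 in 5xFAD/IRF8KO against IRF8KO, -0.71 to 7.66 in the interaction and -0.08 to 0.21 in the conditional knockout. Pycard ranged from -0.47 to 0.57 in the interaction and -0.72 to 0.27 in the age difference, Casp1 from -0.10 to 0.54 in the latter, and Gsdmd from -0.41 to 0.14 in the conditional against the germline effect. WT at 9 months holds the shallowest library (605376 counts in genes), where 1 count of a low gene is a coarse step.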
